A study of Rattus norvegicus with 8 samples.

Results

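The lymphatic growth factors, their receptors and the markers of lymphatic endothelium were examined in rat diaphragm after myocardial infarction. The 8 genes were picked by symbol from the 17055 rows of the count table. They are the growth factors Figf (the older symbol of Vegfd, the gene of VEGF-D) and Vegfc, the receptor Flt4 and the co-receptor Nrp2, and the markers Lyve1, Prox1, Pdpn and Ccl21. The diaphragm is the main muscle of inspiration, and 8 Sprague-Dawley rats gave 1 RNA sequencing library each, 16 weeks after surgery. In the 4 MI rats (replicates 1 to 4) the left anterior descending coronary artery had been tied off through an opening in the left chest wall, under isoflurane and mechanical ventilation. The 4 Sham rats (replicates 5 to 8) had a similar operation without the tie. The labels used here state neither sex, age at surgery, infarct size nor heart function.

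Lymphatic vessels drain fluid, cells and absorbed material from tissues, and the diaphragm is known for a dense lymphatic network that also empties the peritoneal cavity. VEGF-C and VEGF-D are secreted growth factors that bind VEGFR-3, the product of Flt4, on lymphatic endothelial cells, with neuropilin-2 (Nrp2) as a co-receptor. Prox1 is the transcription factor that sets lymphatic endothelial identity, Lyve1 a hyaluronan receptor, Pdpn the membrane glycoprotein podoplanin and Ccl21 the chemokine that draws dendritic cells and T cells into lymphatics. None of these markers is restricted to lymphatic vessels: Lyve1 is also made by some macrophages, Pdpn by fibroblasts and mesothelial cells, and Prox1 by skeletal muscle.

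The libraries held between 7941402 and 24967251 counts, and 3 counts in a library corresponded to 0.12 to 0.378 CPM. Levels are given in CPM, read counts scaled to a common library total, after TMM correction for differences in composition between libraries. The labelled tissue was met by its markers: 9 listed skeletal muscle genes summed to 111351 to 147071 CPM in the MI libraries and 122126 to 145601 CPM in the Sham libraries. Sham replicate 7 stood apart in lymphocyte and lymphoid tissue markers, with a summed level of 168 CPM against 24.6 to 43 CPM in the MI libraries and 26.1 to 31.2 CPM in the other Sham libraries. In whole tissue, fewer lymphatic cells and less RNA per cell cannot be told apart.

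The genes were proposed with earlier MI and Sham results of these libraries known, among them those of Figf, Flt4 and Lyve1, so the MI and Sham values of all 8 are a description and carry no test. In the fit across all 10522 genes with enough counts, which included all 8, edgeR's quasi-likelihood test called 0 genes at an adjusted p under 0.05 (0% of the genes tested). At an unadjusted p under 0.05 it gave 856 genes (8.14%), of which 470 (4.47%) were lower and 386 (3.67%) higher in MI. DESeq2 called 5 genes lower (0.0475%) and 9 higher (0.0855%) in MI on the same counts, with Figf and Flt4 among the 5, and limma-voom called 0. The log2 fold change of MI over Sham was below 0 for 8 of the 8 lymphatic genes and for 51.3% of all genes tested. For 2 of the 8 lymphatic genes, Figf and Flt4, all MI values lay below all Sham values. The same was true of 2.46% of all genes tested, and the opposite order, MI above Sham throughout, of 2.09%. Because that same contrast was known when the genes were chosen, nothing is read from these counts.

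Figf had the largest difference of the 8. It stood at 2.2, 0.978, 1.1 and 2.76 CPM in MI replicates 1 to 4, against 5.12, 6.62, 6.67 and 7.5 CPM in Sham replicates 5 to 8. Every MI library lay below every Sham library, and MI replicates 2 and 3 lay lowest. The mean was 1.76 ± 0.867 CPM in MI and 6.48 ± 0.99 CPM in Sham (SD, n = 4 each). The fitted log2 fold change was -1.91 ± 0.3 (SE), which puts MI at 26.6% of the Sham level. These levels rested on few reads, 13 to 33 counts in the MI libraries and 61 to 173 in the Sham libraries. The 95% Poisson interval of MI replicate 4 reached 4.11 CPM and that of Sham replicate 5 began at 3.99 CPM, so the intervals of these 2 libraries touched. Such intervals cover counting error only.

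Vegfc, the other ligand of VEGFR-3, differed less. It stood at 6.08, 4.89, 4.74 and 5.88 CPM in MI, against 5.42, 7.59, 7.6 and 7.99 CPM in Sham. Sham replicate 5 lay among the MI values, and the other 3 Sham libraries lay above all of them. The log2 fold change was -0.41 ± 0.17. The balance of the ligands within a library was read from their counts. There were 0.363, 0.2, 0.232 and 0.471 Figf counts for each Vegfc count in MI replicates 1 to 4, against 0.946, 0.873, 0.878 and 0.938 in Sham replicates 5 to 8. The Sham ratios lay close together, and every MI ratio lay below them. This ratio, like the other ratios given, was chosen after the values were seen and carries no test.

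Flt4, the gene of the receptor VEGFR-3, stood at 3.6, 3.97, 4.48 and 3.23 CPM in MI, against 6.37, 8.94, 9.48 and 12.4 CPM in Sham. The groups did not overlap, and the spread was wider among Sham libraries (coefficient of variation 26.7%) than among MI libraries (14%). The mean was 3.82 ± 0.537 CPM in MI and 9.3 ± 2.48 CPM in Sham (SD, n = 4 each). The fitted log2 fold change was -1.26 ± 0.21, which puts MI at 41.6% of the Sham level. The counts behind it were 28 to 65 in MI and 87 to 246 in Sham. As for Figf, counting error left some overlap. The 95% Poisson interval of MI replicate 3 reached 5.87 CPM, and that of Sham replicate 5 began at 5.1 CPM. The co-receptor gene Nrp2 stood at 2, 3.12, 3.3 and 2.19 CPM in MI, against 1.9, 2.83, 4.32 and 2.34 CPM in Sham. Its groups lay across each other, with Sham replicates at both ends, and its log2 fold change of -0.13 ± 0.29 became 0.16 without Sham replicate 7.

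**Figure D1:**
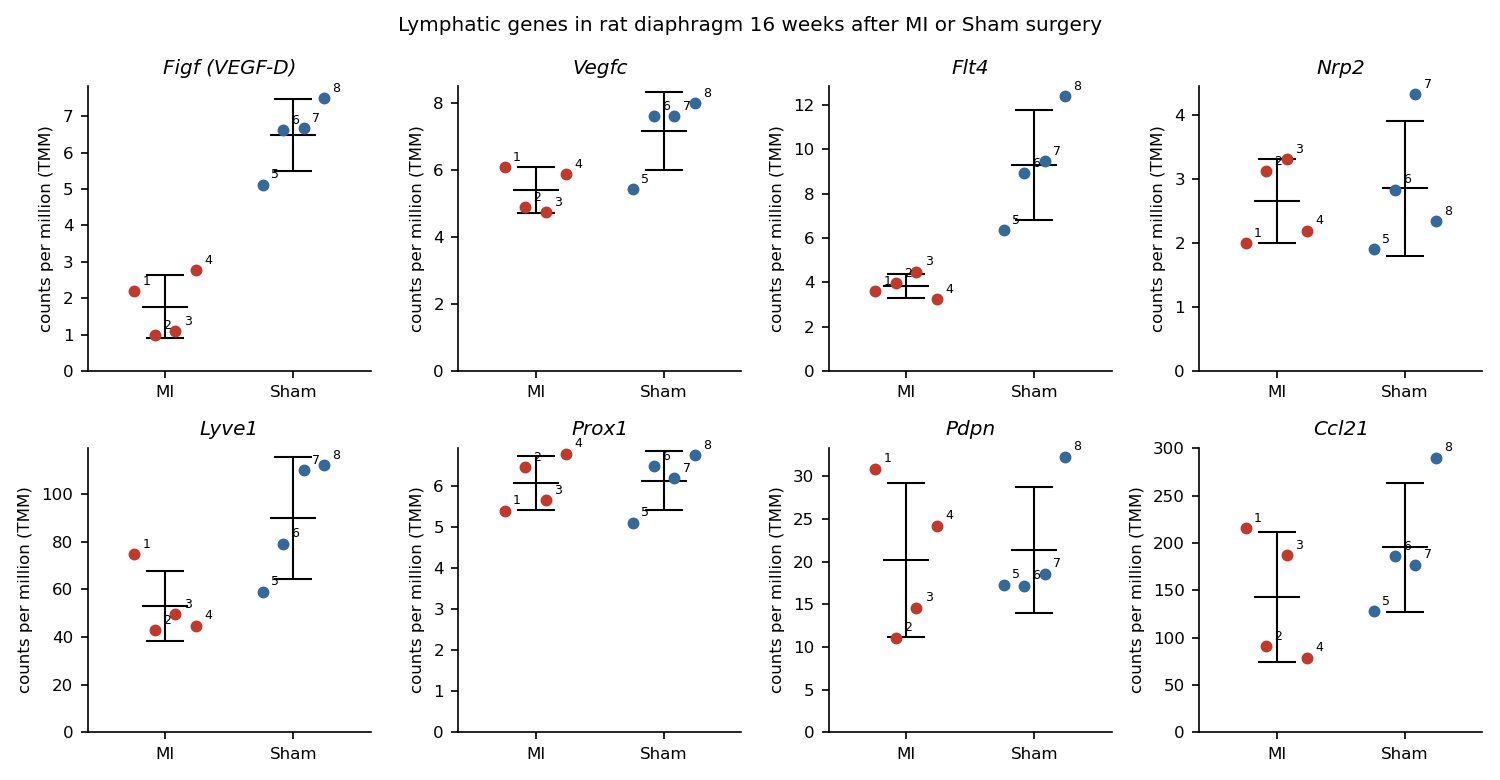
Each panel plots 1 gene in CPM after TMM scaling, with MI libraries in red, Sham libraries in blue and the replicate number beside each point; the horizontal bar and whiskers are the mean and SD of 4 libraries. The MI points of Figf (0.978 to 2.76) and Flt4 (3.23 to 4.48) lie below every Sham point, while the groups overlap in the other 6 panels.

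The sequence before the start of the 3 genes with the largest differences is shown so that their composition and motifs can be compared. Each window holds the 250 bases before the RefSeq start in the GRCr8 assembly, 5′ to 3′ on the gene's own strand. Capitals mark matches on either strand to GGGCGG (the SP1 and KLF box), TATAAA (the TATA box), AGGTCA (a nuclear receptor half-site) or TGANTCA (AP-1). Figf is at chrX:33739893-33740142 (minus strand), Flt4 at chr10:34414584-34414833 (plus strand) and Lyve1 at chr1:174410978-174411227 (minus strand).
Figf: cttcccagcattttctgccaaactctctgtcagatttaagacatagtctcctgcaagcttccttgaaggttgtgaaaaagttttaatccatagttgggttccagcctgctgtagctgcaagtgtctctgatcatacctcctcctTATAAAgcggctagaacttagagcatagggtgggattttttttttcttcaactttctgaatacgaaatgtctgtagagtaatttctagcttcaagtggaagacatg
Flt4: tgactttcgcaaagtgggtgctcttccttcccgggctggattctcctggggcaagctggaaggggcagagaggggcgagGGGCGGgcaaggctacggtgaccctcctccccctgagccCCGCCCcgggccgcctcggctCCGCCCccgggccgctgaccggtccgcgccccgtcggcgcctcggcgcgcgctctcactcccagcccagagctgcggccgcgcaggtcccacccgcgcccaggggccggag
Lyve1: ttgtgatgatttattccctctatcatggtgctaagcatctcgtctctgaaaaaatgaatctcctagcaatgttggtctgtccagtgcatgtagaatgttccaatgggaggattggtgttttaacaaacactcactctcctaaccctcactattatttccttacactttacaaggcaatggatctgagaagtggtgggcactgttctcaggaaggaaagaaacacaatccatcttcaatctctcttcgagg

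The Flt4 window was 76% G and C with 28 CpG dinucleotides, and 97.1% of the 33469 promoter windows of the table had a lower share. The Figf and Lyve1 windows were poor in both, at 40.8% and 41.6% with 2 CpG dinucleotides each, where the median of all windows was 51.2% with 5. GGGCGG occurred 3 times before Flt4 and in 30.5% of all windows. TATAAA occurred once before Figf, beginning 106 bases before the start (position -106), and in 12.9% of all windows. Neither AGGTCA (14.1% of all windows) nor TGANTCA (6.34%) occurred in the 3 sequences shown. These are matches of letters in 1 window and say nothing about which factors bind.

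Lyve1 stood at 74.8, 42.9, 49.5 and 44.8 CPM in MI, against 59, 79.2, 110 and 112 CPM in Sham. MI replicate 1 exceeded Sham replicate 5, and the other MI libraries lay below every Sham library. The mean was 53 ± 14.8 CPM in MI and 89.9 ± 25.5 CPM in Sham (SD, n = 4 each). The fitted log2 fold change was -0.76 ± 0.25. It was -0.65 without Sham replicate 7 or without Sham replicate 8. Lyve1 counts for each count of Mrc1, a mannose receptor gene listed here as a macrophage marker, were 3.2, 2.43, 2.71 and 1.36 in MI. In Sham they were 2.6, 2.96, 3.05 and 4.38, with overlap. Counts of Lyve1 for each count of Flt4 also overlapped, at 10.8 to 20.7 in MI and 8.86 to 11.6 in Sham. Macrophages are another source of Lyve1 transcripts, and 16 of 17 listed macrophage markers were in the table, none at 0 in every library. Among the 15 tested macrophage markers 12 had a log2 fold change below 0, with a median of -0.14, and their summed level was 138 to 256 CPM in MI and 145 to 338 CPM in Sham. The scavenger receptor gene Cd163 averaged 7.25 CPM in MI and 12 CPM in Sham (log2 fold change -0.75 ± 0.31, or -0.34 without Sham replicate 7). Mrc1 averaged 23.1 CPM in MI and 27.7 CPM in Sham (-0.28 ± 0.21, or -0.13 without Sham replicate 7). The most abundant markers, the clotting factor gene F13a1 and the complement gene C1qb, had log2 fold changes of -0.09 ± 0.36 (0.01 without MI replicate 3) and -0.38 ± 0.4 (0.12 without Sham replicate 7). The part of macrophages in the Lyve1 difference was not tested. Relative to the mean log2 CPM of the macrophage markers, the log2 difference of MI from Sham was -0.63 for Lyve1, and its groups overlapped.

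Prox1, the transcription factor of lymphatic identity, stood at 5.41, 6.48, 5.67 and 6.8 CPM in MI, against 5.12, 6.49, 6.21 and 6.76 CPM in Sham. The highest library was MI replicate 4 and the lowest Sham replicate 5, and the groups lay across each other. The means of 6.09 ± 0.656 CPM in MI and 6.15 ± 0.719 CPM in Sham (SD, n = 4 each) gave a log2 fold change of -0.01 ± 0.15, whose sign depended on the setting. Counts of Flt4 for each count of Prox1 were 0.667, 0.613, 0.791 and 0.475 in MI replicates 1 to 4, against 1.24, 1.38, 1.53 and 1.84 in Sham replicates 5 to 8. No MI ratio reached the lowest Sham ratio. Muscle fibres also make Prox1, and 9 tested skeletal muscle markers had a median log2 fold change of -0.088, with 2 above 0 and 7 below. The part of muscle in the Prox1 level was not tested.

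**Figure D2:**
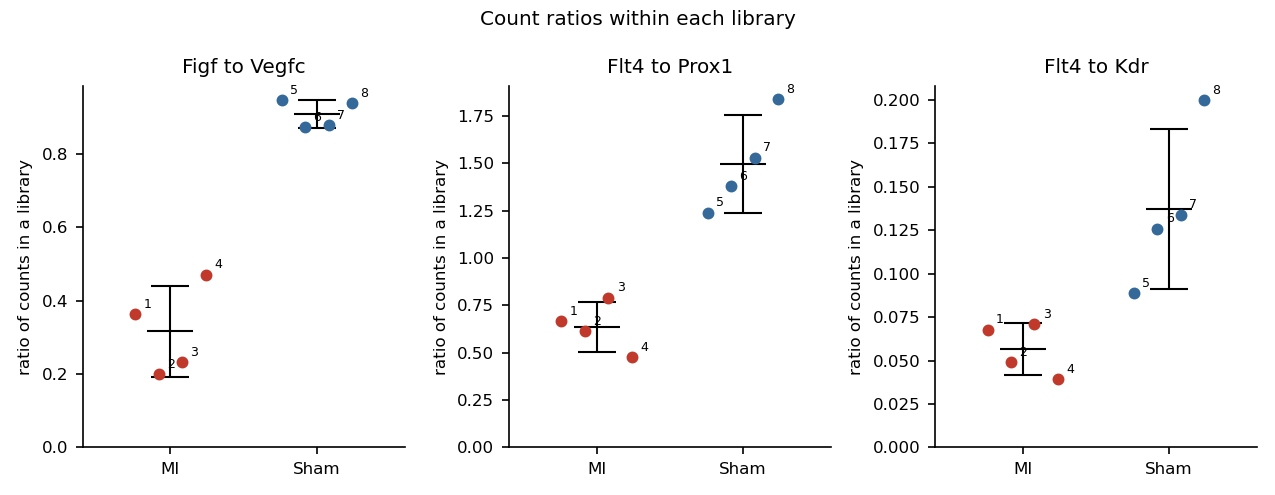
Each point is the ratio of the read counts of 2 genes within 1 library, MI in red and Sham in blue with the replicate number, and bars and whiskers are the mean and SD of 4 libraries. MI ratios lie below all Sham ratios for Figf to Vegfc (highest MI 0.471, lowest Sham 0.873), Flt4 to Prox1 (0.791 and 1.24) and Flt4 to Kdr (0.0708 and 0.089). Figf and Flt4 alone already had this order. Prox1 and Kdr differed little between the group means, so the Flt4 ratios largely repeat it.

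Pdpn and Ccl21 differed between the group means by less than the SD within either group. Pdpn stood at 30.9, 11.1, 14.6 and 24.2 CPM in MI, against 17.3, 17.2, 18.6 and 32.3 CPM in Sham, with a log2 fold change of -0.07 ± 0.35 that was 0.18 without Sham replicate 8. Ccl21 stood at 216, 91.1, 187 and 78.9 CPM in MI, against 128, 186, 177 and 290 CPM in Sham, with a log2 fold change of -0.44 ± 0.39 that was -0.2 without Sham replicate 8. Both genes had Sham replicate 8 as their highest library and an MI library as their lowest, with overlap in between. In mouse the Ccl21 locus holds near-identical copies, and whether reads of further rat copies entered or left this row is not known, so its level is uncertain.

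Mesothelial markers moved with Pdpn. The mesothelium is the cell layer that covers the diaphragm, and 8 of 12 of its listed markers were in the table, none of them at 0 in every library. Their summed level was 428, 92.5, 226 and 432 CPM in MI replicates 1 to 4, against 271, 282, 280 and 517 CPM in Sham replicates 5 to 8. The 3 libraries with the most mesothelial RNA were the 3 with the most Pdpn, and MI replicate 2 was lowest in both. Gpm6a, a membrane glycoprotein gene, averaged 123 ± 74.4 CPM in MI and 124 ± 33.1 CPM in Sham (SD, n = 4 each). Mesothelin, Msln, was at 125, 29.2, 75.7 and 116 CPM in MI, against 76, 102, 106 and 197 CPM in Sham. Of the 7 tested mesothelial markers 6 had a log2 fold change below 0, beside 51.3% of all genes tested, with a median of -0.14. At an unadjusted edgeR p under 0.05 there were 0, beside 8.14% of all genes tested. This list too was chosen with earlier results known, so nothing is read from these counts. For Ccl21 the order differed. Sham replicate 8 was highest in both, but MI replicate 4, with a mesothelial sum of 432 CPM, had the lowest Ccl21, at 78.9 CPM. The part of mesothelial cells in the Pdpn and Ccl21 levels was not tested.

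**Figure D3:**
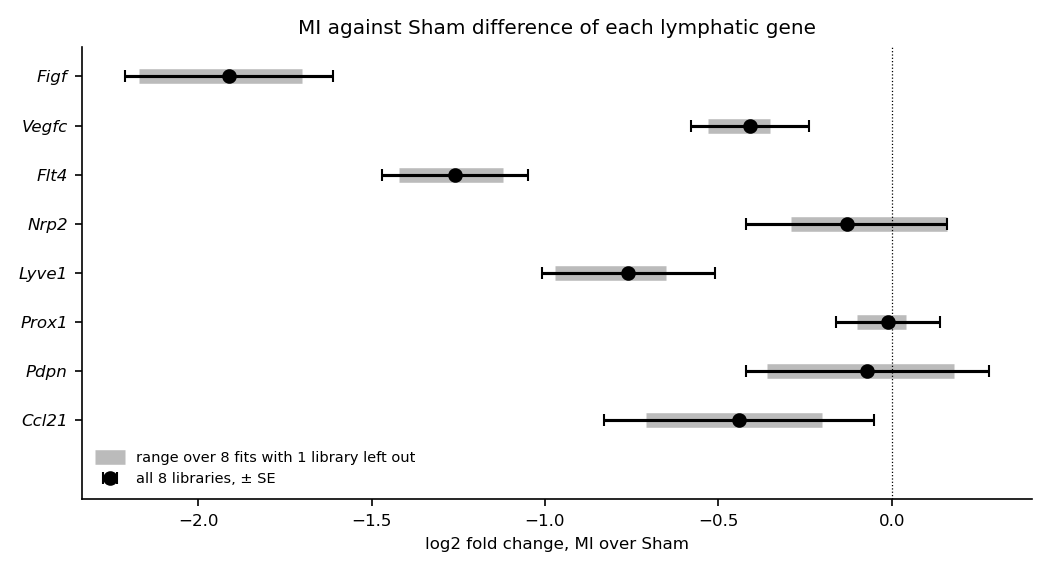
Points are log2 fold changes of MI over Sham for the 8 genes, whiskers their SE, and grey bars the range when each of the 8 libraries was left out in turn. The bars of Figf (-2.17 to -1.7), Flt4 (-1.42 to -1.12) and Lyve1 (-0.97 to -0.65) stay below 0. So do those of Vegfc (-0.53 to -0.35) and Ccl21 (-0.71 to -0.2), while those of Prox1, Pdpn and Nrp2 cross it.

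The order of the libraries was partly shared among the 8 genes. Sham replicate 8, the smallest library at 7941402 counts, was the highest of the 8 libraries for 6 of the 8 genes (Figf, Vegfc, Flt4, Lyve1, Pdpn and Ccl21). The share of all genes tested with that library highest was not computed, so nothing is read from this count. MI replicate 2 was the lowest for Figf, Lyve1 and Pdpn, and MI replicate 4 for Flt4 and Ccl21 although highest for Prox1. Sham replicate 5 was the lowest Sham library for every gene but Pdpn. The animal numbers fall in 2 ranges, and this animal shares the lower range with MI replicates 1 and 2. Within the lower range the log2 difference of MI from Sham was -1.7 for Figf and -0.73 for Flt4, but -0.06 for Lyve1, 0.01 for Vegfc and 0.13 for Ccl21, with 2 MI animals and 1 Sham animal. Within the upper range, with 2 MI and 3 Sham animals, it was -1.9 for Figf, -1.39 for Flt4, -1.07 for Lyve1, -0.54 for Vegfc and -0.8 for Ccl21. No label used here says what the ranges stand for.

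Markers of endothelium in general lay on both sides of 0. Of the 16 tested pan-endothelial and blood endothelial markers 9 had a log2 fold change above 0 and 7 below, with a median of 0.05. At an unadjusted edgeR p under 0.05, 1 was higher (Emcn) and 1 lower (Aqp1), beside 3.67% and 4.47% of all genes tested. The list was chosen with earlier results known, so nothing is read from these counts. Emcn, named after its value was seen, averaged 50 ± 8.14 CPM in MI and 40.4 ± 3.11 CPM in Sham (log2 fold change 0.3 ± 0.12, or 0.19 without MI replicate 4). Pecam1, an adhesion molecule of all endothelium, averaged 64.9 ± 10.7 CPM in MI and 62.7 ± 7.23 CPM in Sham (SD, n = 4 each), and Cdh5, the cadherin of endothelial junctions, 34.6 ± 7.45 CPM in MI and 33.3 ± 5.57 CPM in Sham. The water channel gene Aqp1, the most abundant of the list, averaged 80.2 ± 10.6 CPM in MI and 102 ± 18.4 CPM in Sham (log2 fold change -0.35 ± 0.13, or -0.23 without Sham replicate 7). The summed level of the list was 378 to 528 CPM in MI and 433 to 536 CPM in Sham, and Cd34 was listed at 0 in every library. Relative to the mean log2 CPM of these markers, the log2 difference of MI from Sham was -1.89 for Figf and -1.21 for Flt4. It was -0.73 for Lyve1 and 0.01 for Prox1. The groups of Figf and Flt4 did not overlap. Because the median of the list lay near 0, these values could differ little from those without it. Such relative levels, like the ratios, carry no test. Counts of Flt4 for each count of Kdr, the VEGF receptor of blood vessels, were 0.0678, 0.0489, 0.0708 and 0.0391 in MI, against 0.089, 0.126, 0.134 and 0.2 in Sham.

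**Figure D4:**
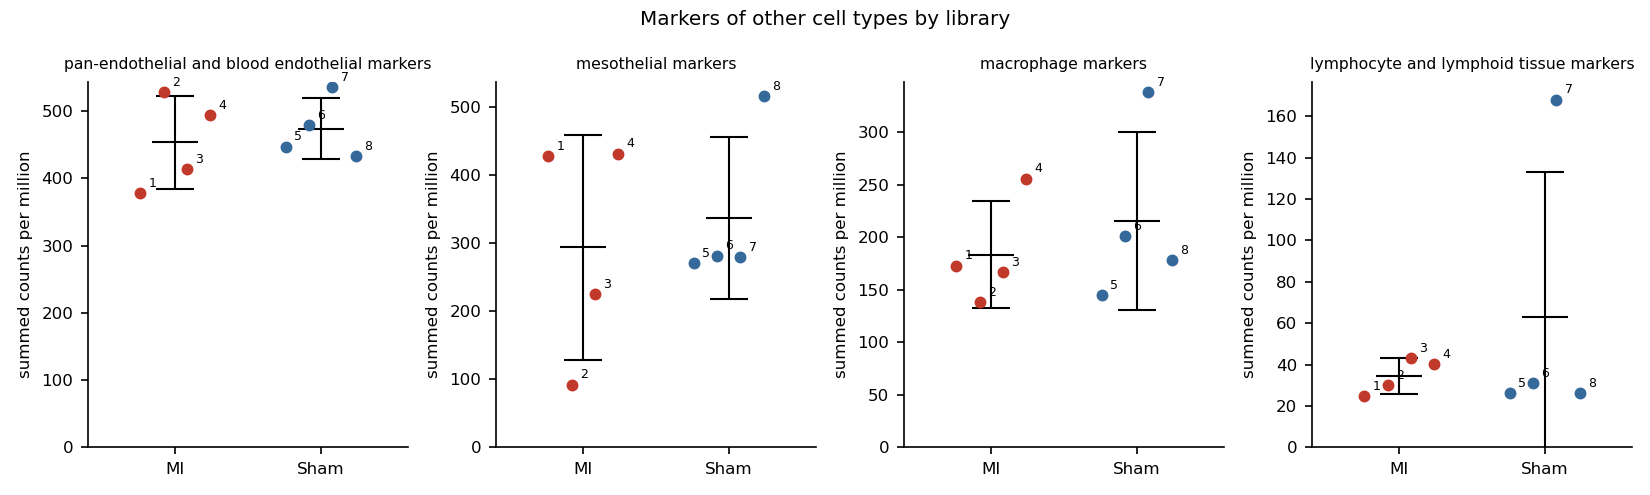
Each panel sums the CPM of 1 marker list in each library, MI in red and Sham in blue with the replicate number, with the mean and SD of 4 libraries as bar and whiskers; the axes start at 0, which cuts the lower Sham whisker of the lymphoid panel. Endothelial sums overlap between the groups, mesothelial sums run lowest in MI replicate 2 (92.5) and highest in Sham replicate 8 (517), and Sham replicate 7 (168) stands alone in the lymphoid panel.

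The wider lymphatic pathway was read from 4 lists of other genes, 60 in all, of which 52 were in the table and 43 had enough counts to be tested. Of these, edgeR called 0 higher and 0 lower (adjusted p 0.601 to 0.994), and DESeq2 and limma-voom likewise called 0. At an unadjusted p under 0.05, 5 genes (11.6%) were lower and 1 (2.33%) higher in MI, beside 4.47% and 3.67% of all genes tested. The median log2 fold change was -0.098, against -0.007 over all genes tested. All MI values lay below all Sham values for 4 of the 43 genes, and 0 had the opposite order, beside 2.46% and 2.09% of all genes tested. The 4 lists were chosen with earlier results of these data known, so nothing is read from these shares. No row was found for 8 of the listed genes under their symbol or a RefSeq synonym. Among these 8 were Ccbe1, the secreted factor that helps to activate VEGF-C, and the lymphatic marker Mmrn1.

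Among ligands and their processing, 9 of 13 tested genes had a log2 fold change below 0, with a median of -0.27. Sema3f, a semaphorin that binds neuropilin-2, stood at 6.08, 4.46, 5.5 and 4.72 CPM in MI, against 7.9, 8.94, 7.79 and 8.73 CPM in Sham, and every MI library lay below every Sham library (log2 fold change -0.68 ± 0.15, edgeR adjusted p = 0.601). Pcsk7, a proprotein convertase able to cut the VEGF-C precursor, averaged 15.8 ± 1.73 CPM in MI and 20.1 ± 1.94 CPM in Sham (-0.35 ± 0.12, edgeR adjusted p = 0.601). Adm encodes adrenomedullin, a peptide that acts on lymphatic endothelium, and averaged 8.25 ± 0.804 CPM in MI and 10.8 ± 1.63 CPM in Sham (-0.39 ± 0.14, edgeR adjusted p = 0.601). Neither Pcsk7 (highest MI 17.7 CPM, lowest Sham 17.9 CPM) nor Adm (8.95 and 9.51 CPM) overlapped between groups. The gap of Pcsk7 was narrow, and 2.46% of all genes tested had all MI values below all Sham values. Angpt1, a ligand of the Tie2 receptor, had a log2 fold change of 0.36 ± 0.22, or 0.16 without MI replicate 4. Vegfa, the main growth factor of blood vessels, averaged 142 ± 20.1 CPM in MI and 126 ± 13 CPM in Sham (0.17 ± 0.11, or 0.08 without MI replicate 4).

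Receptors and co-receptors lay on both sides, with 5 of 13 tested genes above 0 and 8 below (median -0.026 on the log2 scale). Calcrl, the receptor that binds adrenomedullin together with Ramp2, stood at 19.6, 15.5, 19.5 and 19.6 CPM in MI, against 11.8, 15.8, 10.9 and 12.2 CPM in Sham (0.55 ± 0.14, edgeR adjusted p = 0.601). Only MI replicate 2 and Sham replicate 6 overlapped for Calcrl, while its partner Ramp2 had a log2 fold change of 0.06 ± 0.13. Kdr averaged 70.1 ± 14.3 CPM in MI and 68.7 ± 4.5 CPM in Sham (SD, n = 4 each), and Nrp1, the neuropilin of blood vessels, 72.6 ± 8.54 CPM in MI and 73.8 ± 9.29 CPM in Sham. The mechanically gated channel gene Piezo1, listed as Fam38a, had a log2 fold change of -0.43 ± 0.21 and the growth factor receptor gene Met -0.28 ± 0.13. S1pr1, a receptor for the lipid sphingosine-1-phosphate, had -0.2 ± 0.15, or -0.05 without Sham replicate 7.

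**Figure D5:**
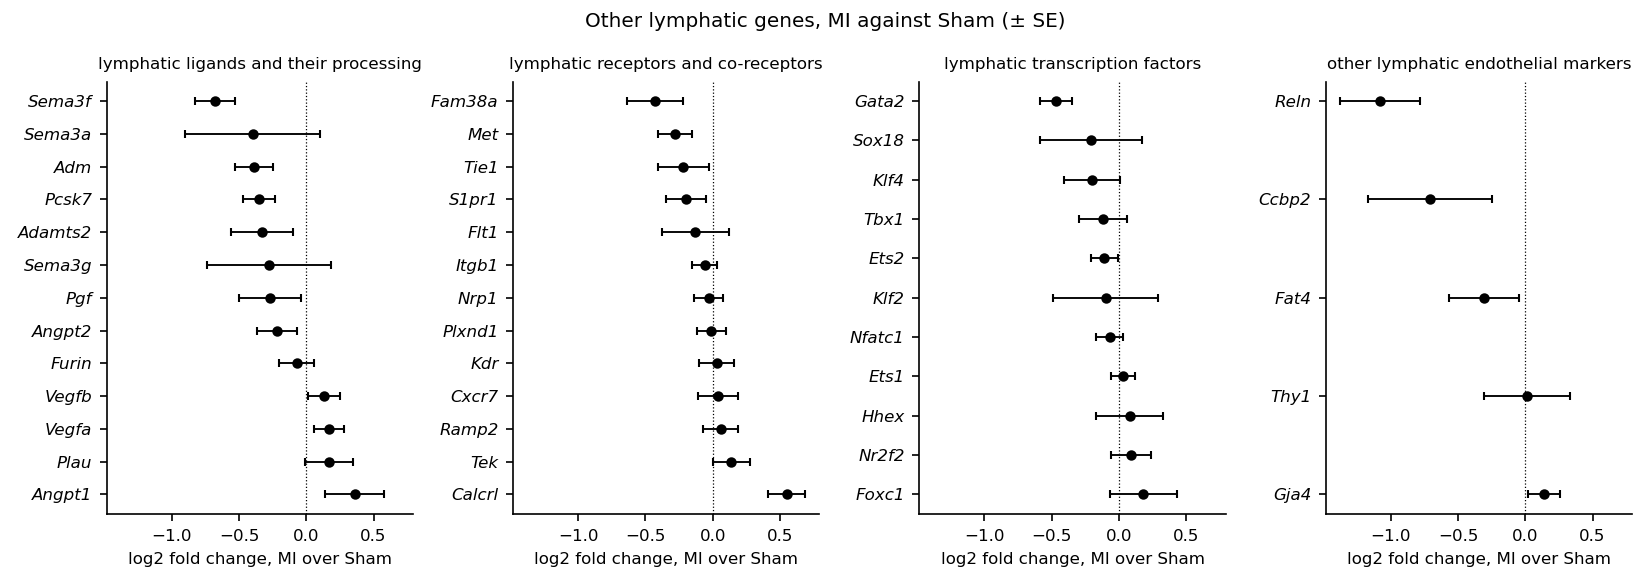
Points are log2 fold changes of MI over Sham with SE for tested genes of the 4 lists, 1 list a panel with 1 transcription factor not drawn, ordered by value; the dotted line marks 0. Sema3f (-0.68), Gata2 (-0.47) and Reln (-1.08) lie at the low end of their panels and Calcrl (0.55) at the high end, and none of the genes drawn passed the edgeR test at an adjusted p under 0.05.

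Transcription factors of lymphatic development had 5 of 12 tested genes above 0 and 7 below (median -0.086 on the log2 scale). Gata2, a factor needed for lymphatic valves, stood at 6.61, 8, 7.78 and 7.49 CPM in MI, against 9.59, 10.7, 10.9 and 10.1 CPM in Sham, without overlap (-0.47 ± 0.12, edgeR adjusted p = 0.601). The factors that induce Prox1 in the embryo, Sox18 (-0.21 ± 0.38) and Nr2f2 (0.09 ± 0.15), differed by less than their spread. The log2 fold change was -0.2 ± 0.21 for Klf4 and -0.11 ± 0.1 for Ets2, which without Sham replicate 6 were 0.01 and -0.02.

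Of the other lymphatic endothelial markers 5 could be tested, 3 below 0 and 2 above, with a median log2 fold change of -0.31. Reln encodes reelin, a secreted glycoprotein that lymphatic endothelium makes, and stood at 11.7, 6.9, 9.05 and 4.15 CPM in MI, against 10.8, 19.1, 19.7 and 18.8 CPM in Sham. Sham replicate 5 lay below MI replicate 1, and the other Sham libraries lay above all MI libraries (-1.08 ± 0.3, edgeR adjusted p = 0.601). Ackr2, listed as Ccbp2, is a chemokine scavenging receptor of lymphatic endothelium and averaged 1.37 ± 0.873 CPM in MI and 2.36 ± 1.13 CPM in Sham (-0.71 ± 0.46, or -0.48 without Sham replicate 8), and its groups overlapped. Gja4, a gap junction gene, had a log2 fold change of 0.14 ± 0.12 (0.06 without MI replicate 2) and Fat4, a large cadherin, -0.31 ± 0.26.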

How the data were processed

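The labels' protocols name TRI Reagent for RNA from snap-frozen diaphragm, and a SMARTer Ultra Low kit with a KAPA Hyper kit for the libraries. The authors deposited whole-number read counts by gene symbol, not normalized, with a column for each animal. The submitters' processing notes list bcl2fastq, STAR 2.5.0a, TopHat2, TopHat and Cufflinks with build rn5. For the counting program, the annotation and multiply mapped reads the entry is: not given in the sources used here. The kit does not mark strand, so overlapping and antisense transcripts share reads.

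Groups came from the labels, which give no batch and no pairing. Pairs of libraries within a group differed beyond sampling noise (chi-square per degree of freedom 12.1 to 44.3), so each counted as 1 replicate. Of 17055 rows, 10522 passed filterByExpr and were fitted in edgeR 4.0.16 under R 4.3.3 with TMM scaling and a two-sided quasi-likelihood test (robust setting), Benjamini-Hochberg adjusted over all of them. The SE is the fold change divided by the root of the F statistic. The procedure was tested on simulated data beforehand. DESeq2 1.42.0 and limma-voom (limma 3.58.1) were alternatives, beside other scalings, filters, thinned counts, a term for animal number and each library left out. Log2 CPM used a prior count of 2.

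The 8 genes and the lists were chosen with earlier results of these data known. Named from each of the 4 lymphatic lists were the 4 tested genes of at least 1 CPM with the smallest p. Added whatever their result were Vegfa, Kdr, Nrp1, Ccbe1, Sox18, Nr2f2, Mmrn1 and Reln. From each of 8 marker lists the 2 most abundant genes were named, with Pecam1, Cdh5, Cd163, Mrc1 and Ptprc. The result of 1 gene that the rule names is not reported here. Names were matched to RefSeq (GRCr8), and 7 of the 8 genes had a promoter window. In that assembly 1 further locus each overlaps Figf and Nrp2. Neither has a row in the table.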

Additional observations from a re-analysis of the deposited data

Results flagged for a closer look

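In groups of 4 libraries a value was singled out when its gap to the nearest other library was too large a share of the group's range (Dixon's criterion at 95%). Of 16 groups examined, 2 held such a value, where chance alone marks about 1 group in 20. Vegfc in Sham replicate 5, at 5.42 CPM, lay below the other 3 Sham libraries, which spanned 7.59 to 7.99 CPM. Without that library the log2 fold change of Vegfc was -0.53, against -0.41 with all 8. Pdpn in Sham replicate 8, at 32.3 CPM, lay above the other 3 Sham libraries, which spanned 17.2 to 18.6 CPM, and without it the log2 fold change of Pdpn turned to 0.18.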

How the results depend on the processing

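The count of genes at an adjusted p under 0.05 was 0 in edgeR and stayed 0 with RLE size factors, library totals alone, both other filters, limma-voom, thinned counts, the animal number term and a threshold of 0.1. DESeq2 gave 14, 9 higher and 5 lower, with Figf and Flt4 among the 5 (no support, since they were chosen with this contrast known), and leaving out 1 library gave 0 to 1 (Alas2, named after its value was seen, without MI replicate 1). The cause of the difference between the tools was not tested. At an unadjusted p under 0.05 the count was 856 and, with 1 library left out, 510 (without Sham replicate 7) to 1091. The animal number term gave 590.

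Over 20 alternatives the log2 fold change ran from -2.17 to -1.7 for Figf, -1.42 to -0.73 for Flt4, -1.07 to -0.06 for Lyve1, -0.54 to 0.01 for Vegfc and -0.8 to 0.13 for Ccl21, with the values nearest to or above 0 from the 3 animals of the lower number range (for Figf also from leaving out MI replicate 2). The signs of Prox1 (9 of 20), Nrp2 (4) and Pdpn (4) turned in some. The lower range also put Prox1 at 0.2 and Nrp2 at 0.37, with 1 Sham animal. Depth limits Figf and Nrp2 most, with as few as 13 and 19 counts in a library. No paired analysis was possible because the labels give no pairing and every animal has its own number.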

Other observations

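Genes whose deviations from their group mean ran most nearly parallel to those of a lymphatic gene were listed by Pearson's r of log2 CPM over the 8 libraries, among 10154 genes of at least 1 CPM. Lyve1 ran closest to Ackr2 (listed as Ccbp2, 0.976), itself a listed lymphatic marker, then Itga4 (0.971) and Mras (0.969). Figf ran closest to Rasa1 (0.984), Ubxn8 (0.983) and Rarres2 (0.977), and Flt4 to Lmf2 (0.977), Suv39h2 (0.969) and B4galt7 (0.965). For Vegfc, Prox1, Pdpn and Ccl21 the closest genes were Flrt2 (0.974), Utrn (0.962), Sfpq (0.993) and Cd97 (0.974). These genes were picked as the highest among 10154 values over 8 libraries that share depth and composition, so the values are descriptions only.

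Markers of other cell types in the diaphragm were read in the same way, from the same fit. Fibroblast markers had 6 of 11 tested genes above 0, 3 of them higher at an unadjusted p under 0.05, beside 3.67% of all genes tested. The marker lists too were chosen with earlier results known, so nothing is read from that share. Dcn, the matrix proteoglycan decorin, averaged 1541 ± 316 CPM in MI and 1217 ± 157 CPM in Sham (SD, n = 4 each; log2 fold change 0.34, or 0.2 without MI replicate 4), and the collagen gene Col3a1 398 ± 145 CPM in MI and 399 ± 97.7 CPM in Sham. Adipocyte markers had 7 of 8 genes above 0, with a summed level of 221 to 472 CPM in MI and 182 to 259 CPM in Sham. Fabp4, a fatty acid carrier, averaged 200 CPM in MI and 167 CPM in Sham, and the hormone gene Adipoq 47.6 CPM in MI and 32.3 CPM in Sham. The sum of 472 CPM was that of MI replicate 4, with 221 to 276 CPM in the other MI libraries. Without that library the log2 fold change was 0.06 for Fabp4, against 0.26 with all 8, and -0.13 for Adipoq, against 0.53. Pericyte and smooth muscle markers had 4 of 10 genes above 0. Among them Rgs5 averaged 116 ± 23.5 CPM in MI and 86 ± 6.5 CPM in Sham (SD, n = 4 each), and the channel subunit gene Abcc9 203 ± 26 CPM in MI and 180 ± 9.45 CPM in Sham (log2 fold change 0.17, or 0.08 without MI replicate 4). The muscle genes Acta1 and Ckm averaged 44646 and 31095 CPM in MI, against 47270 and 33054 CPM in Sham.

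Lymphocyte and lymphoid tissue markers had 7 of 7 tested genes below 0, of 15 in the table, with Sham replicate 7 far above the rest. Without that library the log2 fold change was -0.07 for Cd4, -0.09 for Klrd1, 0.18 for Ltb and -0.95 for Cxcl13. With all 8 libraries these were -0.33, -0.87, -0.6 and -4.12. With 1 library left out, the highest value was 0.42 for Ptprc, 0.56 for Cd2 and 1.34 for Cd8a, so the direction was not stable. Cxcl13, a chemokine of lymphoid follicles, reached 80.8 CPM in Sham replicate 7. It lay at 0.244 to 3.13 CPM in MI and 0.615 to 3.79 CPM in the other Sham libraries. Ptprc, the leukocyte marker CD45, averaged 19.5 ± 4.7 CPM in MI and 20.6 ± 12.5 CPM in Sham (SD, n = 4 each).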
